A study of Mus musculus with 8 samples.

Results

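Messenger RNA levels of 34 genes of cholesterol and fatty acid synthesis were followed through the exit from mitosis in mouse pluripotent stem cells. The genes were taken by symbol from a table of read counts for 54838 Ensembl genes. All 34 had a row, and all 34 were among the 19101 genes that passed the filter on low counts. They comprised 5 genes of sterol sensing, 6 of the mevalonate pathway from Hmgcs1 to Fdps, and 11 that carry squalene to cholesterol. A further 3 were of acetyl-CoA metabolism and 7 of fatty acid synthesis, elongation and desaturation. The others were the sterol carrier Stard4 and the phosphatidate phosphatase Lpin1.

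The cells were male mouse induced pluripotent stem cells, which are reprogrammed to a state like that of embryonic stem cells and which the sample titles call ESC. All states came from cells kept on irradiated feeders in 15% fetal bovine serum with LIF (1000 U/ml), a MEK inhibitor (1 uM) and a GSK3 inhibitor (3 uM), and 2 independent clones served as replicates. Mitotic cells were moved to gelatin, held for 6 h in nocodazole (200 ng/ml), a microtubule poison that arrests cells in mitosis, and shaken off. Early G1 and late G1 cells were the same kind of shaken-off cells washed free of the drug and plated on gelatin for 1 h and for 3 h, and asynchronous cells were cycling cells. Each of the 4 states had 2 libraries. The RNA protocol in the labels names asynchronous cells only, so how the RNA of the other states was prepared is not stated.

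Cholesterol and fatty acids are both built from acetyl-CoA in the cytosol. SREBP transcription factors, encoded by Srebf1 and Srebf2, are held in the endoplasmic reticulum by SCAP and the INSIG proteins while sterols are plentiful. When sterols run low, SCAP escorts SREBP to the Golgi, where proteases free its active part. That part turns on most enzymes of both pathways, and Insig1 itself, which closes the loop. A dividing cell needs these lipids for new membrane. The active SREBP protein is not measured by RNA sequencing.

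Libraries held 20410621 to 25615244 counts, and levels are given as CPM, counts per 1000000 of the library total after TMM scaling. A CPM is a share of a library, so fewer cells of a type and less RNA per cell cannot be told apart, and a change in total RNA per cell is not seen. The 8 pluripotent markers summed to 5147 to 6684 CPM in all libraries. The 15 feeder fibroblast markers summed to 43.7 CPM in both mitotic libraries, 73.9 and 80.5 CPM in early G1, 41.0 and 47.1 CPM in late G1, and 1357 and 1433 CPM in asynchronous cells. Of the 13 that were tested, all 13 were lower in each synchronised state than in asynchronous cells. The 10 macrophage markers summed to 242 to 345 CPM, mostly from Laptm5 and Cd68, which were present in all 8 libraries. Lyz2, a lysozyme of macrophages, had 28.7 and 30.8 CPM in mitotic cells, 0.756 and 0.116 CPM in early G1, 0 CPM in both late G1 libraries, and 9.44 and 14.7 CPM in asynchronous cells. The part of these cells in the results below was not tested.

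Replicates of the 2 G1 states lay closer together than those of the other states. The larger replicate was a median of 1.18 times the smaller over the 34 genes in mitotic cells, 1.05 times in early G1, 1.04 times in late G1 and 1.26 times in asynchronous cells. The ratio passed 1.5 for 9 genes in asynchronous cells (Hmgcs1, Mvk, Pmvk, Idi1, Fdps, Ebp, Acat2, Acaca and Fads1), for Fads1 in mitotic cells and for none in G1. Each replicate is a clone, and which clone each replicate number stands for is not given. The main fit pooled the spread between replicates over all states. Its p-value for a pair of states therefore does not measure the spread between clones in that pair alone.

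SREBP binds a short sterol regulatory element, often near a CCAAT box that binds NF-Y, a factor known to work with it. The bases before the RefSeq start of 4 genes are shown. Of these genes 3 (Insig1, Hsd17b7 and Lpin1) were higher in early G1 than in mitotic cells. Other genes called there, such as Cyp51, also had a window and are not shown. Hmgcs1 was not called, and is shown as the only gene matching TCACNCCAC, the string searched for as the sterol regulatory element. Hmgcs1 still had 224 and 223 CPM in early G1, above 196 and 150.2 CPM in mitotic cells (log2 change 0.37). It was called higher in the fit without both asynchronous libraries. The capitals mark TCACNCCAC and CCAAT on either strand (CCAAT on the other strand reads ATTGG). They run 5′ to 3′ in GRCm38.p6, and stop short of the gene in the annotation. Hmgcs1, which makes the precursor of mevalonate, is shown at chr13:119690101-119690350 (+ strand). Insig1 is at chr5:28071162-28071362 (+ strand), Hsd17b7, a ketone reductase of late sterol synthesis, at chr1:169969242-169969455 (- strand) and Lpin1 at chr12:16610967-16611216 (- strand).
Hmgcs1: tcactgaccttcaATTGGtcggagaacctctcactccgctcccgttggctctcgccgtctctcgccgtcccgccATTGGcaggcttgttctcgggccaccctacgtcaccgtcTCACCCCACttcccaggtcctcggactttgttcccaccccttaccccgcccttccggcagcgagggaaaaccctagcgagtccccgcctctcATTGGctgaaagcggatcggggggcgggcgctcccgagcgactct
Insig1: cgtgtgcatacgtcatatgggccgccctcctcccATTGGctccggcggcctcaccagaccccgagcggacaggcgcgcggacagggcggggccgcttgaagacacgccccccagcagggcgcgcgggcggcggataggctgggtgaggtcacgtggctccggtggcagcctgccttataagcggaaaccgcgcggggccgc
Hsd17b7: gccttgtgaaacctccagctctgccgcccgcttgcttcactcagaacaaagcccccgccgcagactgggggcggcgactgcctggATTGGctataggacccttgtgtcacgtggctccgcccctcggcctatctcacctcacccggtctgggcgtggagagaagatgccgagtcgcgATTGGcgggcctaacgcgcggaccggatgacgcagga
Lpin1: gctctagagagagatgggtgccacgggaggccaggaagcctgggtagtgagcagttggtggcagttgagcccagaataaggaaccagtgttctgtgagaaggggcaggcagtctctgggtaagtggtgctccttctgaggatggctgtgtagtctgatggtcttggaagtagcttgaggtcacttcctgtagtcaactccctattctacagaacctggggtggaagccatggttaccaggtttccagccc
Hmgcs1 alone held TCACNCCAC, with its first base at -137 from the start, and no match overlapped a CCAAT. The windows shown for Insig1 and Hsd17b7 held CCAAT without TCACNCCAC, and that for Lpin1 held neither.

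The RefSeq promoter table had 35 windows of 250 bases for 27 of the 34 genes. TCACNCCAC was found in 1 of these windows (2.86%), that of Hmgcs1, against 1.05% of all 32851 windows and 1.08% of the 15546 windows of tested genes. CCAAT was found in 60% of the windows (20 genes), against 33.9% of all windows and 35.3% of those of tested genes. GGGCGG, the GC box that binds Sp1, was found in 71.4% of the windows (22 genes), against 32.7% and 54.6%. Several genes have more than 1 window, and a match is a string of letters and not a shown binding site. A window without a match is not shown to lack a site.

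The lowest level of any of the 34 genes in any library was 1.47 CPM, that of Idi1 in asynchronous replicate 2, where 3 counts made 0.152 CPM. Per kilobase of annotated exon, averaged over the 4 states, the highest levels were those of Scd2 (97.4 CPM per kb), a stearoyl-CoA desaturase that makes monounsaturated fatty acids, of Acly (82.5 CPM per kb), which cleaves citrate to cytosolic acetyl-CoA, and of Fasn (63.4 CPM per kb), the fatty acid synthase. The lowest were those of Idi1 (1.49 CPM per kb), the isopentenyl diphosphate isomerase, Acaca (1.53 CPM per kb), an acetyl-CoA carboxylase, and Acss2 (1.71 CPM per kb), an acetyl-CoA synthetase. Idi1 and Acaca share sequence with other genes, so their levels are uncertain. In every state the level per kilobase of Srebf2 was above that of Srebf1, that of Insig1 above that of Insig2, and that of Scd2 above that of Scd1. In mitotic cells these were 30.1 and 12.1 CPM per kb for Srebf2 and Srebf1, 20.5 and 5.96 CPM per kb for Insig1 and Insig2, and 65.4 and 17.7 CPM per kb for Scd2 and Scd1.

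The 34 genes together took up less of the mitotic libraries than of the others. Their summed level was 3496 and 3323 CPM in mitotic cells, 4394 and 4511 CPM in early G1, 4224 and 4095 CPM in late G1, and 4111 and 3693 CPM in asynchronous cells. The 2 mitotic libraries were the lowest and the 2 early G1 libraries the highest. The genes from squalene to cholesterol summed to 547 and 618 CPM in mitotic cells, 735 and 736 CPM in early G1, 662 and 687 CPM in late G1, and 770 and 763 CPM in asynchronous cells. Those of fatty acid synthesis and modification summed to 1555 and 1417 CPM, 1952 and 2069 CPM, 1942 and 1851 CPM, and 1623 and 1402 CPM in the same 4 states. So the squalene to cholesterol sum stood lowest in mitotic and highest in asynchronous libraries, whereas the fatty acid sum was higher in both G1 states than in both others. Fasn and Scd2 weighed most in the fatty acid sum. Against asynchronous cells the log2 change was positive for 5 of its 7 genes in early G1 and for 4 in late G1. The mevalonate genes summed to 362 and 347 CPM in mitotic cells, 403 and 385 CPM in early G1, 349 and 343 CPM in late G1, and 454 and 489.9 CPM in asynchronous cells, and here mitotic and late G1 libraries overlapped. The sterol sensing genes summed to 470.1 and 429 CPM in mitotic cells and 576 and 579 CPM in early G1. They summed to 549 and 502 CPM in late G1, and 640 and 529 CPM in asynchronous cells. The mitotic libraries stood lowest, early G1 stood above late G1, and the asynchronous libraries overlapped both G1 states.

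**Figure D1:**
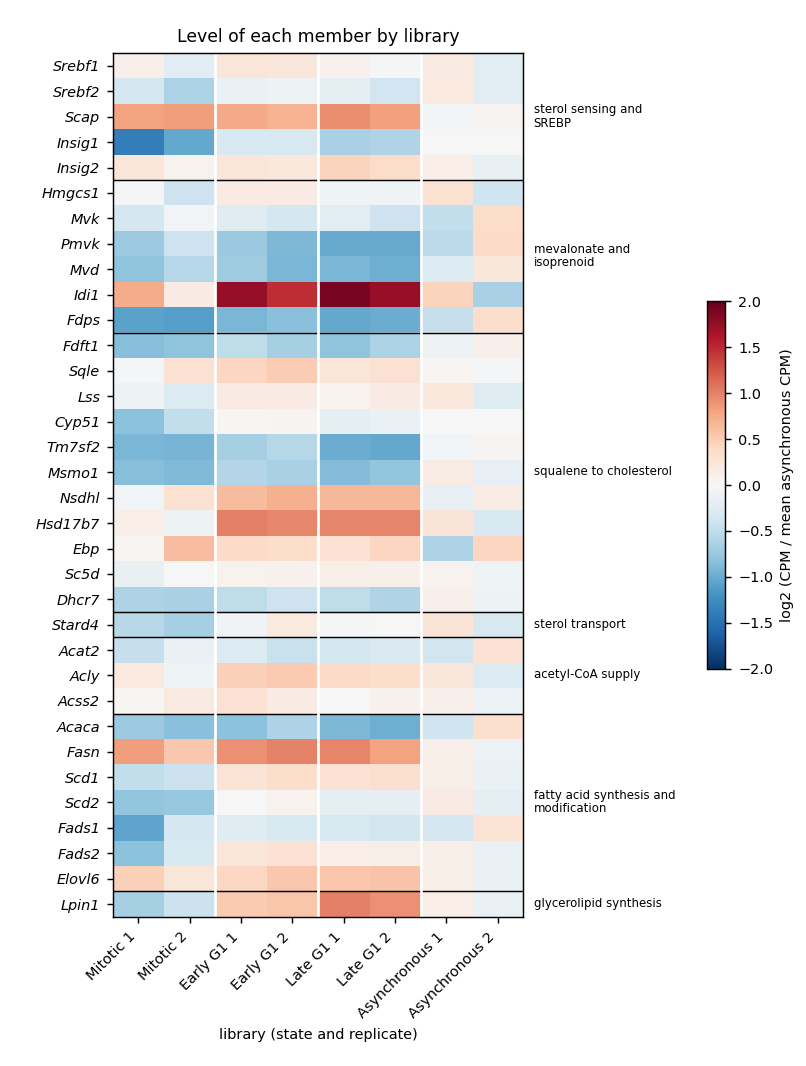
Level of each of the 34 genes (rows, grouped by role) in each of the 8 libraries (columns), as log2 of its CPM over its mean asynchronous CPM. Most squares of the squalene to cholesterol genes are below 0 in the 2 mitotic columns. Scap, Fasn, Elovl6 and some others, such as Insig2 and Idi1, are above 0 in all 6 synchronised columns.

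Set against asynchronous cells, mitotic cells had lower levels of Insig1, of several sterol synthesis genes such as Fdft1 and Msmo1 and of the desaturases Scd1, Scd2 and Fads2, and higher levels of Scap and Fasn. Of the 34 genes, 15 were lower (44.1%) and 2 higher (5.88%) in mitotic cells at a Benjamini-Hochberg adjusted p under 0.05 (edgeR quasi-likelihood test). Of all 19101 genes tested, 22.4% were lower and 18.3% higher. The median log2 change was -0.38 over the 34 genes and -0.05 over all genes.

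Among the regulators, Insig1, which holds SCAP in the endoplasmic reticulum, had 55.6 and 71.4 CPM in mitotic cells against 146 and 145 CPM in asynchronous cells. Both mitotic libraries were below both asynchronous ones, and the log2 change was -1.19 (SE 0.14, edgeR adjusted p = 6.02e-04). Scap had 79.6 and 81.5 CPM in mitotic cells against 44.0 and 47.2 CPM in asynchronous cells, with no overlap and a log2 change of 0.82 (SE 0.12, edgeR adjusted p = 0.00135). Srebf2, whose protein acts mainly on sterol genes, had 237 and 196 CPM in mitotic cells against 349 and 259 CPM in asynchronous cells, so its libraries did not overlap either. Its log2 change of -0.49 had an edgeR adjusted p of 0.0499, just under the threshold. Srebf1, whose protein acts mainly on fatty acid genes, had 75.9 and 60.9 CPM in mitotic cells against 80.8 and 61.2 CPM in asynchronous cells, and these overlapped. Insig2 had 22.0 and 19.5 CPM in mitotic cells against 20.3 and 16.7 CPM in asynchronous cells, and was not called.

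Of the 6 mevalonate genes, 2 were lower in mitotic cells and none was higher. Fdps, which makes farnesyl diphosphate, had 16.5 and 16.2 CPM in mitotic cells against 25.3 and 44.3 CPM in asynchronous cells (log2 change -1.09, SE 0.24, edgeR adjusted p = 0.00884). Mvd, which decarboxylates mevalonate diphosphate, had 56.9 and 67.0 CPM in mitotic cells against 82.3 and 116 CPM in asynchronous cells (log2 change -0.68). The libraries of both genes kept apart, but Fdps varied 1.75-fold between the asynchronous replicates. For Hmgcs1 the groups met, with 196 and 150.2 CPM in mitotic cells against 248 and 152 CPM in asynchronous cells.

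From squalene to cholesterol, 5 of 11 genes were lower in mitotic cells and none was higher. Fdft1, the squalene synthase, had 77.7 and 80.7 CPM in mitotic cells against 131 and 151 CPM in asynchronous cells (log2 change -0.83, SE 0.13, edgeR adjusted p = 0.00212). Msmo1, the methylsterol oxidase, had 66.7 and 65.3 CPM in mitotic cells against 134 and 107 CPM in asynchronous cells (log2 change -0.87, SE 0.14). Tm7sf2, a sterol reductase, had 14.4 and 14.2 CPM in mitotic cells against 26.1 and 28.1 CPM in asynchronous cells (log2 change -0.92, SE 0.14). In each of these the mitotic libraries were all below the asynchronous ones. Cyp51, the lanosterol demethylase, and Dhcr7, a reductase of the final steps, were also lower, with log2 changes of -0.65 and -0.64. Sqle, Lss, Nsdhl, Hsd17b7, Ebp and Sc5d were not called. Stard4, which carries cholesterol between membranes, had 21.4 and 19.9 CPM in mitotic cells against 37.7 and 25.2 CPM in asynchronous cells (log2 change -0.61, edgeR adjusted p = 0.0419).

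Among the fatty acid genes Fasn went the other way from Scd1, Scd2 and Fads2. Fasn had 774 and 627 CPM in mitotic cells against 466 and 399 CPM in asynchronous cells (log2 change 0.69, SE 0.14, edgeR adjusted p = 0.00692). Scd2 had 353 and 362 CPM in mitotic cells against 683 and 537 CPM in asynchronous cells (log2 change -0.77, SE 0.14, edgeR adjusted p = 0.00326). Acaca had 23.3 and 21.7 CPM in mitotic cells against 29.1 and 48.0 CPM in asynchronous cells (log2 change -0.77, SE 0.23). None of these 3 genes had overlapping groups. Scd1 (-0.47), Fads2, which starts the synthesis of polyunsaturated fatty acids (-0.54), and Lpin1, which makes diacylglycerol (-0.55), were lower as well. The genes of acetyl-CoA metabolism, Acat2, Acly and Acss2, were not called. Fitted on the mitotic and asynchronous libraries alone, 7 of the 34 genes were called. Scap and Fasn were higher, and Insig1, Fdft1, Tm7sf2, Msmo1 and Scd2 were lower. Of the 18245 genes in that fit 8.55% were higher and 12.7% lower, so the shares of the members lay near those of all genes. Scap, Insig1, Fdft1, Cyp51, Tm7sf2, Msmo1, Dhcr7 and Scd2 were called whichever library was left out.

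**Figure D2:**
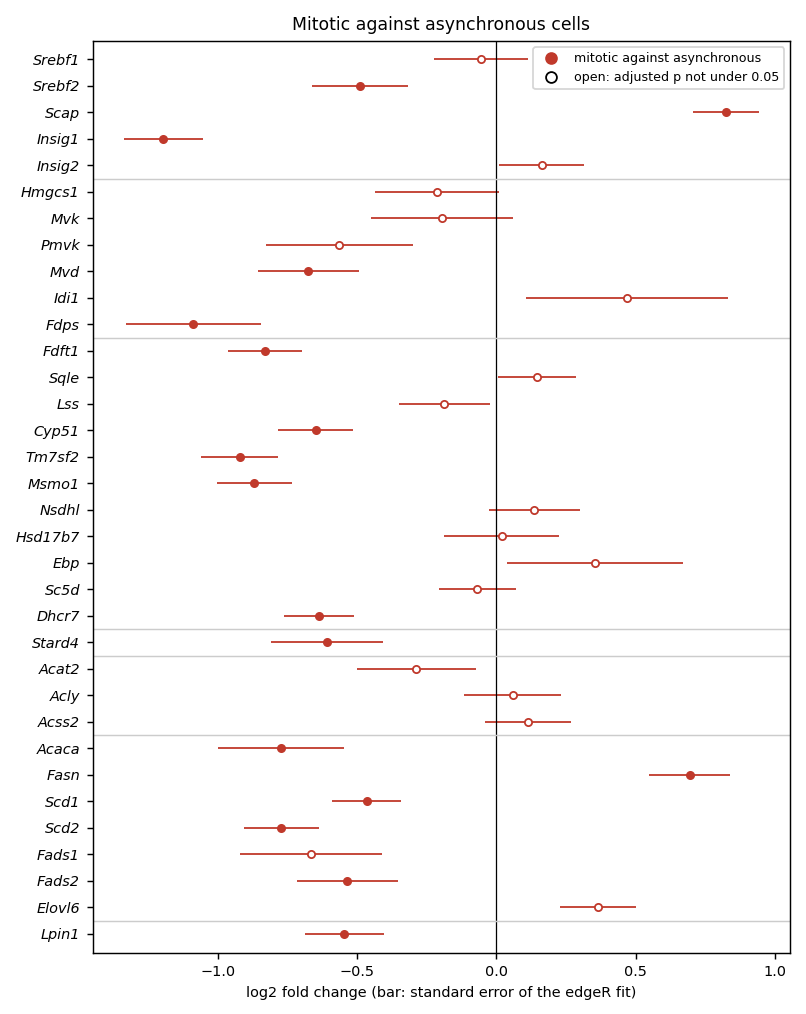
Log2 fold change of each gene in mitotic against asynchronous cells (x axis, bars are standard errors of the edgeR fit), with genes down the page by role and open points for genes not called. Insig1 lies farthest to the left at -1.19 and Scap farthest to the right at 0.82.

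At 1 h after release from the arrest, levels were higher in early G1 than in mitotic cells for Insig1, Cyp51, Hsd17b7, Scd1, Scd2, Fads2 and Lpin1. Of the 34 genes, 7 were higher in early G1 (20.6%) and 0 lower, where 3.21% of all genes tested were higher and 1.42% lower (edgeR, adjusted p under 0.05). The log2 change was positive for 29 of the 34, with a median of 0.30 against -0.01 over all genes. The early G1 and mitotic libraries did not overlap for 26 genes, of which 24 stood higher and 2 lower in early G1. How many of all genes tested did not overlap was not counted, so the 26 cannot be set against a background. These counts share the mitotic libraries with the comparison above, so a gene that is low in them is low in both.

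Lpin1 had 93.4 and 94.9 CPM in early G1 against 40.7 and 47.9 CPM in mitotic cells, a log2 change of 1.09 (SE 0.14, edgeR adjusted p = 0.00816). Insig1 had 117 and 116 CPM in early G1 against 55.6 and 71.4 CPM in mitotic cells, a log2 change of 0.88 (SE 0.14, edgeR adjusted p = 0.0162). Hsd17b7 had 18.7 and 18.2 CPM in early G1 against 10.3 and 8.76 CPM in mitotic cells, a log2 change of 0.96 (SE 0.20, edgeR adjusted p = 0.0417). In all 3 both early G1 libraries stood above both mitotic ones. Cyp51 had 114 and 115 CPM in early G1 against 62.6 and 78.7 CPM in mitotic cells, also without overlap (log2 change 0.70, SE 0.13, edgeR adjusted p = 0.0308).

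Of the 4 desaturase genes 3 were higher in early G1. Scd1 had 145 and 153 CPM in early G1 against 85.0 and 88.6 CPM in mitotic cells (log2 change 0.78, SE 0.13, edgeR adjusted p = 0.0164). Scd2 had 604 and 640.0 CPM in early G1 against 353 and 362 CPM in mitotic cells (log2 change 0.80, SE 0.14, edgeR adjusted p = 0.0195). Fads2 had 51.3 and 52.9 CPM in early G1 against 24.7 and 35.1 CPM in mitotic cells (log2 change 0.80, SE 0.18, edgeR adjusted p = 0.0480). All 3 had early G1 libraries above the mitotic ones. Fads1, which lies near Fads2 on chromosome 19, had 71.2 and 68.1 CPM in early G1 against 40.4 and 65.7 CPM in mitotic cells and was not called (edgeR adjusted p = 0.391).

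Several genes had separated libraries without a call. Idi1 had 7.84 and 6.45 CPM in early G1 against 3.88 and 2.59 CPM in mitotic cells, a log2 change of 1.14 with an edgeR adjusted p of 0.102. Stard4 had 30.1 and 36.0 CPM in early G1 against 21.4 and 19.9 CPM in mitotic cells (edgeR adjusted p = 0.0983). Nsdhl, a sterol dehydrogenase, had 58.3 and 61.3 CPM in early G1 against 36.2 and 46.2 CPM in mitotic cells (edgeR adjusted p = 0.102). Srebf2 had 276 and 284 CPM in early G1 against 237 and 196 CPM in mitotic cells, Srebf1 had 84.2 and 83.4 CPM against 75.9 and 60.9 CPM, and neither was called. Scap was at 76.7 and 73.5 CPM in early G1 and at 79.6 and 81.5 CPM in mitotic cells, and Insig2 at 21.8 and 21.4 CPM in early G1 and at 22.0 and 19.5 CPM in mitotic cells.

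The count of 7 depended on the libraries in the fit. It was 0 without mitotic replicate 1 or either early G1 library, 2 without mitotic replicate 2, 1 without either late G1 library, and 14 or 15 without asynchronous replicate 1 or 2. Without both asynchronous libraries 15 genes were higher and 0 lower, beside 13.2% and 11.1% of the 18286 genes then tested. Those 15 were Srebf2, Insig1, Hmgcs1, Idi1, Lss, Cyp51, Msmo1, Nsdhl, Hsd17b7, Stard4, Acly, Scd1, Scd2, Fads2 and Lpin1. Of the tested macrophage markers 7 of 9 were lower in early G1 than in mitotic cells, and 4 of 13 feeder markers were higher.

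**Figure D3:**
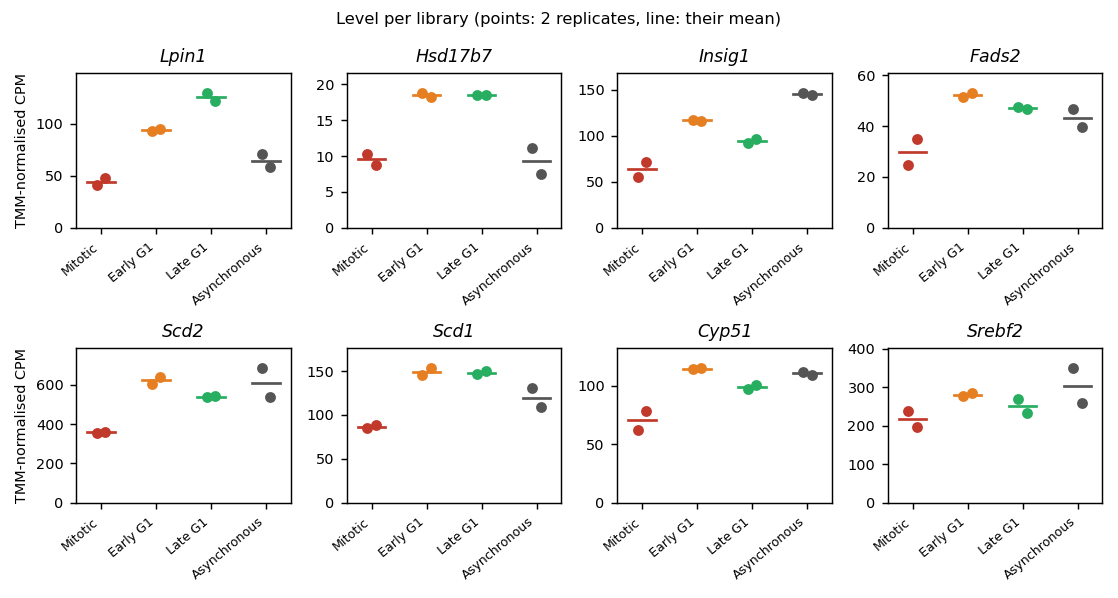
CPM of 8 genes in each library (points) by state, with the mean of the 2 replicates as a line and the y axis from 0. Lpin1 is highest in late G1 at 129 and 122 CPM, while Insig1 is highest in asynchronous cells at 146 and 145 CPM.

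Between 1 h and 3 h of release, the changes of the 34 genes were small and mostly negative. In the fit of all 8 libraries, 0 of the 34 genes and 0% of the 19101 genes tested were called between late and early G1 by edgeR, with 2 of the 34 and 724 of all genes at an unadjusted p under 0.05. DESeq2 called 26 genes, none of them among the 34. The log2 change was positive for 9 of the 34 genes, with a median of -0.12. The late and early G1 libraries did not overlap for 24 genes, of which 5 stood higher and 19 lower in late G1. Such genes were not counted among all genes tested, so the 24 cannot be set against a background. Fitted on the 4 G1 libraries alone, which replicated closely, 1 of the 34 genes was higher and 8 were lower in late G1, where 3.50% of the 17696 genes in that fit were higher and 4.94% lower.

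In that fit Lpin1 was the gene that went up, with 129 and 122 CPM in late G1 against 93.4 and 94.9 CPM in early G1 (log2 change 0.42, edgeR adjusted p = 4.71e-06). Insig1 had 92.6 and 95.9 CPM in late G1 against 117 and 116 CPM in early G1 (log2 change -0.31, edgeR adjusted p = 3.93e-04). Hmgcs1 had 189 CPM in both late G1 libraries against 224 and 223 CPM in early G1 (log2 change -0.24, edgeR adjusted p = 0.00201). For each of these genes the states did not overlap. The other 6 lower genes were Tm7sf2 (log2 change -0.39), Cyp51 (-0.21), Msmo1 (-0.21), Srebf1 (-0.21), Sqle, the squalene epoxidase (-0.20), and Scd2 (-0.20). Each change was small in size, the largest of the 9 being that of Lpin1. The fit of 2 states has fewer libraries from which to estimate the spread.

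Set against mitotic cells, late G1 had higher levels of Lpin1, Idi1, Hsd17b7, Scd1, Scd2 and Insig1. Of the 34 genes 6 were higher in late G1 (17.6%) and 0 lower, where 5.43% of all genes were higher and 4.04% lower (edgeR, adjusted p under 0.05), and the median log2 change was 0.19. Lpin1 had 129 and 122 CPM in late G1 against 40.7 and 47.9 CPM in mitotic cells, a log2 change of 1.51 (SE 0.14, edgeR adjusted p = 0.00220). Idi1 had 8.62 and 7.69 CPM in late G1 against 3.88 and 2.59 CPM in mitotic cells, a log2 change of 1.33 (SE 0.35, edgeR adjusted p = 0.0486). Hsd17b7 had 18.5 CPM in both late G1 libraries against 10.3 and 8.76 CPM in mitotic cells, a log2 change of 0.96 (edgeR adjusted p = 0.0273). None of the 3 overlapped. Scd1 had 147 and 149.5 CPM in late G1 against 85.0 and 88.6 CPM in mitotic cells (log2 change 0.77, SE 0.13, edgeR adjusted p = 0.0113). Scd2 had 539.9 and 540.2 CPM in late G1 against 353 and 362 CPM in mitotic cells (log2 change 0.60, SE 0.14, edgeR adjusted p = 0.0326). Insig1 had 92.6 and 95.9 CPM in late G1 against 55.6 and 71.4 CPM in mitotic cells (log2 change 0.57, SE 0.14, edgeR adjusted p = 0.0412). These 3 did not overlap either. Srebf1 stood at 75.4 and 69.6 CPM in late G1, Srebf2 at 269 and 232 CPM and Insig2 at 25.2 and 23.7 CPM, and none of them was called against mitotic or asynchronous cells. Of the 6, Lpin1 alone was called whichever library was left out. The count was 1 without either mitotic or either late G1 library, 2 without either early G1 library and 13 without either asynchronous library.

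**Figure D4:**
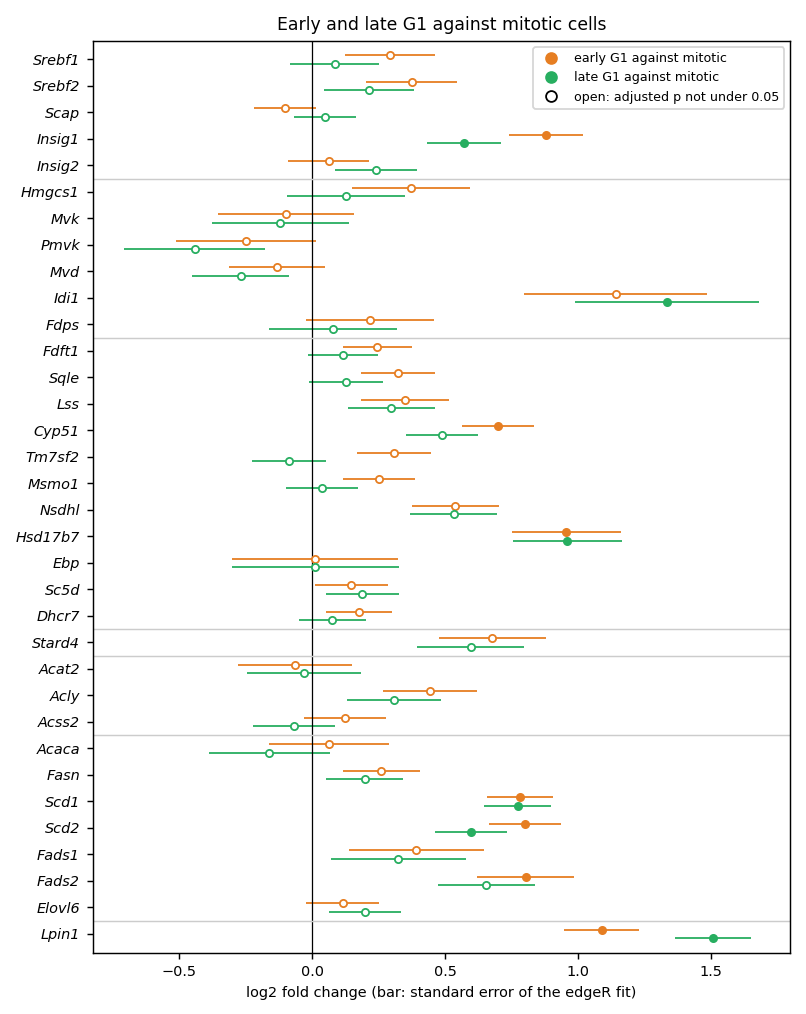
Log2 fold change of each gene in early G1 and in late G1 against mitotic cells (x axis, bars are standard errors of the edgeR fit), with open points for genes not called. Both comparisons use the same 2 mitotic libraries. The late G1 point of Lpin1 lies farthest to the right at 1.51.

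Set against asynchronous cells, the G1 states had some of the 34 genes higher and about as many lower. In early G1 9 genes were higher (26.5%) and 8 lower (23.5%), where 21.3% of all genes tested were higher and 24.7% lower (edgeR, adjusted p under 0.05). In late G1 7 were higher (20.6%) and 9 lower (26.5%), where 22.7% of all genes were higher and 26.0% lower. These shares lie near those of all genes. Both comparisons share the asynchronous libraries, which also held the feeder markers.

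The higher genes came from several steps. Idi1 had 7.84 and 6.45 CPM in early G1, 8.62 and 7.69 CPM in late G1, and 3.15 and 1.47 CPM in asynchronous cells (log2 changes 1.61 and 1.80, edgeR adjusted p = 0.00755 and 0.00421). Hsd17b7 had 18.7 and 18.2 CPM in early G1, 18.5 CPM in both late G1 libraries, and 11.2 and 7.55 CPM in asynchronous cells (log2 changes 0.97 and 0.98). Fasn had 814 and 864 CPM in early G1, 849 and 758 CPM in late G1, and 466 and 399 CPM in asynchronous cells (log2 changes 0.95 and 0.89). In each of these all 4 G1 libraries stood above both asynchronous ones. Scap had 76.7 and 73.5 CPM in early G1, 86.8 and 80.0 CPM in late G1, and 44.0 and 47.2 CPM in asynchronous cells (log2 changes 0.72 and 0.87). With its mitotic 79.6 and 81.5 CPM, Scap was the only regulator whose 6 synchronised libraries all stood above both asynchronous ones. Lpin1 (0.54 in early G1 and 0.96 in late G1), Nsdhl (0.67 in both) and Elovl6, which elongates palmitate (0.48 and 0.56), were higher in both G1 states. Sqle (0.47) and Acly (0.50) were called in early G1.

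The lower genes were mostly of sterol synthesis. Tm7sf2 had 17.1 and 18.3 CPM in early G1, 13.7 and 13.3 CPM in late G1, and 26.1 and 28.1 CPM in asynchronous cells (log2 changes -0.61 and -1.01). Mvd had 60.6 and 52.5 CPM in early G1, 52.3 and 50.5 CPM in late G1, and 82.3 and 116 CPM in asynchronous cells (log2 changes -0.81 and -0.94). Pmvk, the phosphomevalonate kinase, had 56.3 and 50.7 CPM in early G1, 46.7 and 46.9 CPM in late G1, and 65.4 and 123 CPM in asynchronous cells (0.569 and 0.498 times the asynchronous level). No G1 library of these genes reached the asynchronous ones. Fdps had 18.5 and 19.6 CPM in early G1, 17.1 and 17.5 CPM in late G1, and 25.3 and 44.3 CPM in asynchronous cells (log2 changes -0.87, SE 0.24, and -1.01, SE 0.24, edgeR adjusted p = 0.0190 and 0.00977). Acaca had 21.9 and 25.2 CPM in early G1, 20.7 and 19.6 CPM in late G1, and 29.1 and 48.0 CPM in asynchronous cells (log2 changes -0.71, SE 0.23, and -0.94, SE 0.23, edgeR adjusted p = 0.0323 and 0.0105). Both kept apart from the asynchronous libraries. Msmo1 (-0.62 and -0.83), Fdft1 (-0.58 and -0.72) and Dhcr7 (-0.46 and -0.56) were lower in both G1 states, and Insig1 in late G1 (-0.62). Pmvk, Fdps and Acaca rest on asynchronous replicates that differed by over 1.5 times. The early G1 count of 17 was 4 without early G1 replicate 2, 6 without early G1 replicate 1 and 11 without late G1 replicate 2. The late G1 count of 16 was 9 without either late G1 library.

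**Figure D5:**
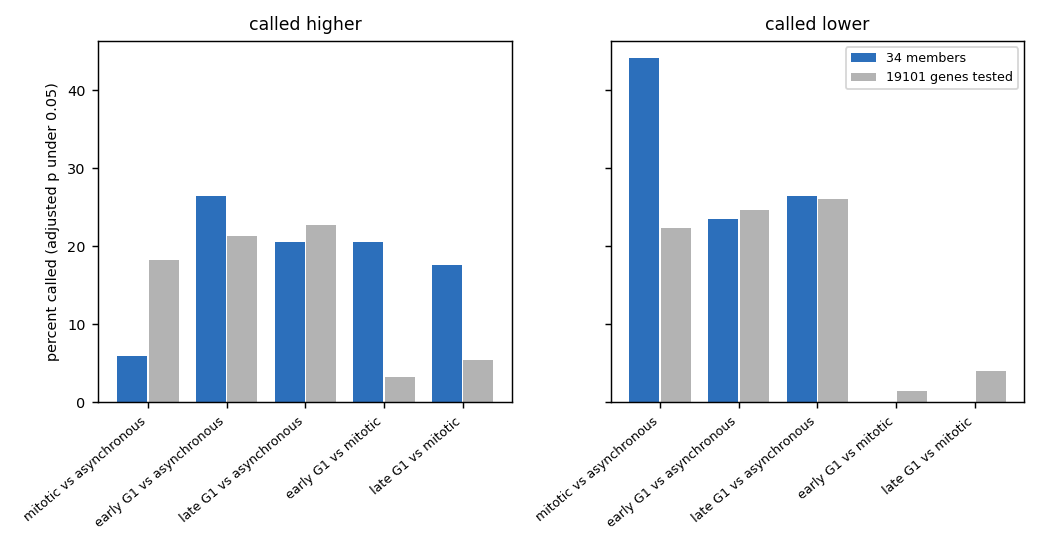
Percent of the 34 genes (blue) and of the 19101 genes tested (grey) that were higher (left) or lower (right) in each comparison at an edgeR adjusted p under 0.05. The members' bar stands farthest above the grey bar among the lower genes of mitotic against asynchronous cells, at 44.1% against 22.4%, and among the higher genes of early G1 against mitotic cells, at 20.6% against 3.21%.

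Genes of neighbouring pathways were set beside the 34 with no test of a difference between lists. Between early G1 and mitotic cells 3.21% of all genes tested were higher and 1.42% lower. Of 10 genes of the isoprenoid branch, 10 of SREBP processing, 14 of sterol efflux, transport and storage, 21 of fatty acid elongation, activation and supply, 20 of glycerolipid synthesis and 19 tested genes of fatty acid oxidation, Slc25a1 alone was called. Slc25a1, the mitochondrial carrier that exports the citrate used by Acly, averaged 86.9 CPM in early G1 and 38.3 CPM in mitotic cells (log2 change 1.18, SE 0.16, edgeR adjusted p = 0.00889). In asynchronous cells it averaged 280.2 CPM, so both synchronised means were far lower (log2 changes -1.69 for early G1 and -2.87 for mitotic cells). Between late G1 and mitotic cells 5.43% of all genes tested were higher and 4.04% lower. In the lists, 2 genes of SREBP processing were higher in late G1. They were Rnf139 (1.07), a ubiquitin ligase, and Sec23a (0.88), a coat protein of vesicles that leave the endoplasmic reticulum. Elovl2, which elongates polyunsaturated fatty acids, was also higher (1.40), as were Slc25a1 (0.61) and Agpat5 (0.58), an acyltransferase of glycerolipid synthesis, while Mcat (-0.74) and Cpt1c (-0.62) were lower. None of these lists had a call between late and early G1, where 0% of all 19101 genes tested were called.

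Set against asynchronous cells, these lists held calls in both directions in mitotic cells, where 22.4% of all genes tested were lower and 18.3% higher. Several of their shares lie near those of all genes, such as 20% higher and 20% lower for glycerolipid synthesis. Sterol efflux, transport and storage had 7 of 14 genes lower and 1 higher. Vldlr, a lipoprotein receptor, averaged 1.07 CPM in mitotic and 14.8 CPM in asynchronous cells, and Soat1, which esterifies cholesterol, averaged 20.4 and 54.7 CPM in the same states (log2 changes -3.79 and -1.42). Scarb1, a receptor for high-density lipoprotein, was lower too (-1.23). SREBP processing had 2 of 10 genes higher, among them Mbtps1, a protease that cleaves SREBP (0.69), and 0 lower. The isoprenoid branch had 4 of 10 higher and 1 lower, with Pdss1 at 1.27 and Coq2 at -1.37, both of ubiquinone synthesis. Fatty acid oxidation had 4 higher and 4 lower of 19, among them Slc25a20, the carnitine carrier of mitochondria (1.59), and Decr1 (-1.47). Glycerolipid synthesis also had 4 higher and 4 lower of 20, and fatty acid elongation, activation and supply had 2 higher and 6 lower of 21. In G1 against asynchronous cells the count of lower efflux, transport and storage genes was again 7 of 14 in each state. Of all genes tested, 24.7% were lower in early G1 and 26.0% in late G1. Abca1, the cholesterol exporter, was higher (1.94 in early G1 and 1.74 in late G1). SREBP processing had 4 of 10 higher in early G1 and 6 of 10 in late G1, with 0 lower. Of all genes, 21.3% and 22.7% were higher. The other lists held calls in both directions, such as 4 higher and 9 lower of 21 for fatty acid elongation, activation and supply in late G1.

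Some of the 34 genes share sequence with other genes, and how the counting treated such reads is not given in the sources used here. Of the 50-base words of their exons, 39.1% were shared with another gene for Acat2, 30.4% for Acaca, 26.2% for Fdps, 17.7% for Idi1, 9.87% for Tm7sf2 and 9.38% for Fdft1. The values of these 6 genes are uncertain, and the percentages do not measure by how much. Scd1 shared 4.56% and Scd2 3.97%, so the reads of this pair could mostly be told apart.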

How the data were processed

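Per the labels' protocols, poly(A) RNA went through a strand-marking kit and was read from a single end for 50 bases. The authors deposited raw read counts per Ensembl gene, whole numbers without normalisation. TopHat2, SAMtools, HTSeq and mm10 are named without versions, per the submitters' processing notes. Which annotation and strand setting HTSeq used is not stated, so genes with antisense or overlapping neighbours are uncertain. The members and lists were chosen with earlier results of these data known.

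IDs were matched to GENCODE M21 (GRCm38), which gave a symbol for 54723 of 54838, and 20402 genes had 0 counts throughout. Samples were grouped by title. In edgeR 4.0.16 (R 4.3.3), filterByExpr at a minimum count of 10 left 19101 genes, TMM set the scaling, and 1 robust quasi-likelihood fit took in the 8 libraries by state, with no block and 4 residual degrees of freedom. A call is a two-sided p under 0.05 after Benjamini-Hochberg adjustment over all genes of a comparison. DESeq2 1.42.0 and other scalings, filters and sets of libraries were alternatives. Standard errors were derived from the change and its F statistic. A floor of 3 counts was 0.116 to 0.152 CPM and covers counting error only. Values per library are given for the called genes with the 8 largest changes per comparison at an average log2 CPM of at least 2 and for the 5 regulators, and of the other lists for up to 3 called genes with the smallest p. Further genes were chosen after their values were seen. Promoter windows came from RefSeq (GRCm38.p6). It held no entry for Fdps, Fdft1, Sqle, Stard4, Scd1, Scd2 or Fads1.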

Additional observations from a re-analysis of the deposited data

How the results depend on the processing

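Most counts of called genes kept their direction, but their size moved with the libraries in the fit, and the cause was not tested. Leaving out each library in turn gave 8 to 21 called genes for mitotic against asynchronous cells (17 with all libraries), 0 to 15 for early G1 against mitotic (7), 0 to 0 for late against early G1 (0), 1 to 13 for late G1 against mitotic (6), 9 to 22 for late G1 against asynchronous (16) and 4 to 25 for early G1 against asynchronous (17). Where 1 library of a state was left, it was assumed to vary like the other states. Fits of the 2 groups alone gave 7 for mitotic against asynchronous, 12 for early G1 against mitotic and 9 for late against early G1. They gave 10 for late G1 against mitotic and 8 for early G1 against asynchronous. Of all genes in these fits, 9.47% were higher and 5.86% lower in early G1 against mitotic cells. The shares were 12.8% and 9.45% for late G1 against mitotic, and 13.1% and 17.7% for early G1 against asynchronous cells. Those for mitotic against asynchronous and for late against early G1 are given above. With no filter on low counts there were 11 for early G1 against mitotic and 10 for late G1 against mitotic. A minimum fold of 1.5 left 11 for early G1 against asynchronous.

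Replicate 1 deviated together in mitotic and asynchronous cells (r = 0.621 over 12037 genes), while early G1 and asynchronous replicates gave -0.365, so the shared numbers were not taken to pair the samples. With the replicate block the counts were 18, 7, 0, 6, 16 and 17 in the order above. A model term marking the first replicate of mitotic and asynchronous cells gave 18 for early G1 against mitotic, 19 for late G1 against mitotic and 26 for early G1 against asynchronous. In 2 fits chosen after seeing the data, leaving out both asynchronous libraries gave 15 for early G1 and 13 for late G1 against mitotic, and leaving out replicate 1 of both states gave 26 (21 higher and 5 lower), 9 (1 and 8), 23 (18 and 5), 28 (16 and 12) and 30 (18 and 12) for the 5 comparisons after the first. Without both asynchronous libraries, 15.6% of the 18286 genes were higher and 14.4% lower in late G1 against mitotic cells. The fit without replicate 1 of both states left 1 library each of mitotic and asynchronous cells. In all 5 comparisons it called a larger share of all genes than the main fit, in both directions. Its counts are therefore not a measure of the members alone. In early G1 against mitotic cells the changes in that fit were positive for most members. They were negative for Mvk, Pmvk, Mvd, Ebp and Acat2, among others, and none of these 5 was called in that comparison with all libraries. The last fit turned 4 uncalled changes round: Ebp became -0.25 in early G1 and -0.25 in late G1 against mitotic cells, and Hmgcs1 0.31 and Stard4 0.31 in late G1 against asynchronous cells. With 2 libraries a state, a change missed here is not shown to be absent.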
